A study of Mus musculus with 2 samples.

Results

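The genes described here are 9 that shape or handle Notch receptors: the fringe glycosyltransferases Lfng, Mfng and Rfng, the membrane proteases Adam10 and Adam17, the gamma-secretase subunits Psen2 and Ncstn, the endocytic adaptor Numb and the ubiquitin ligase Mib1. They were taken by gene name from the spots that were not controls. All 9 were found, with 12 probes among the 39429 on the array, and all 9 passed the filter on dim probes, which left 21143 genes to test. RNA of whole mouse ureters at postnatal day 4 was compared on 2 two-colour arrays. Each held an Rbpj-cKO RNA, of genotype Tbx18(cre/+);Rbpj(fx/fx), against a control RNA, of genotype Tbx18(+/+);Rbpj(fx/n.d.), both on the NMRI strain. Array 1 held a pair labelled female, with the Rbpj-cKO RNA in red, and array 2 a pair labelled male, with the dyes exchanged. The controls thus share an fx allele of Rbpj with the Rbpj-cKO mice and lack the cre allele of Tbx18. That cre allele limits recombination to cells that express or once expressed Tbx18. Its presence differs between the genotypes together with the Rbpj deletion, and their parts in the ratios cannot be told apart. The sources used here do not give how many animals stand behind each RNA. The p-values therefore rest on the spread between these 2 pairs, which limma moderates with that of all genes. They do not measure a spread between animals.

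Notch receptors are single-pass membrane proteins that are modified, cut and recycled before they can signal. In the secretory pathway O-fucose is added to their EGF-like repeats and the fringe enzymes extend it with N-acetylglucosamine, which changes which ligands a receptor answers to. Once a ligand is bound, its endocytosis in the sending cell depends on Mib1. An ADAM protease cuts the outside of the receptor and gamma-secretase then frees the intracellular part of the receptor. That fragment enters the nucleus and acts through Rbpj, the gene deleted here, so the 9 genes act upstream of the deleted factor. Lfng is also known as a transcriptional target of Notch in the segmenting embryo, and Numb restrains Notch by promoting its removal from the membrane.

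Because Rbpj binds DNA of the type GTGGGAA, the stretch before the Lfng start site is shown with its matches in capitals. The sequence is that of RefSeq, build GRCm38.p6, plus strand, and covers the 250 bases before the start.

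Lfng, chr5:140607091-140607340: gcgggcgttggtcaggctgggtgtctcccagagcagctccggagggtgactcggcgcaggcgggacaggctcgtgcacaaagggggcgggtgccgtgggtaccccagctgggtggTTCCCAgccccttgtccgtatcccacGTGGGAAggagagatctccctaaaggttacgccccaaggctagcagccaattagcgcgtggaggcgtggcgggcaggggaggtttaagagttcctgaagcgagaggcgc

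The capitals mark a GTGGGAA that begins 109 bases before the start, which contains the shorter TGGGAA, and a TTCCCA, the reverse complement of TGGGAA, that begins 135 bases before it. Both motifs were searched on both strands of windows of 300 bases that run to 50 bases past the start. Of the 9 genes, 7 had such a window in the table and Mfng and Mib1 did not. The longer motif was found in Lfng and at the second of the start sites listed for Psen2. It occurs in 6.38% of all 32851 windows, and the shorter one in 25.6%. Counted by gene over any of its windows, the longer motif occurs in 7.25% of 27025 genes and the shorter in 28.3%. Neither motif was found in the windows of Rfng, Adam10, Adam17, Ncstn or Numb. The match near the second Psen2 start, on the minus strand, is shown for comparison and begins 89 bases before that start.

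Psen2, chr1:180246022-180246051: agcacaggagacTTCCCACagatgtttatc

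A match of this kind describes the letters only. For 3 of the 9 genes an oligo that captured the transcript is shown as deposited (mm9, minus strand). Each can be read through its 60 bases without a stop codon, in 1 frame for Rfng and Ncstn and in 2 for Numb. The frames of the other probes were not counted, so this does not set these 3 oligos apart or show that they are coding. The place of the 3 oligos in coding exons was not checked against an annotation.

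Rfng, dimmer probe, chr11:120643797-120643856: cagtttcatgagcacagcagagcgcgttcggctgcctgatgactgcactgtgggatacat
Ncstn, chr1:173998332-173998391: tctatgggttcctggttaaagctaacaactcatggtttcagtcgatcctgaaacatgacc
Numb, chr12:85136400-85136459: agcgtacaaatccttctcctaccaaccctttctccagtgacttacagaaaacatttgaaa

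Leaving out Mib1, the brightest probes of the other genes lie at chr5:141091224-141091283 (Lfng), chr15:78586332-78586391 (Mfng), chr11:120642060-120642119 (Rfng), chr9:70627859-70627918 (Adam10), chr12:21329370-21329429 (Adam17) and chr1:182157610-182157669 (Psen2), all in mm9 as the files give them. The place of these in coding or untranslated exons was not determined, as no annotation of that build was used here.

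Several facts of the RNAs precede the results. Rbpj itself had a log2 ratio of Rbpj-cKO over control of -0.92 on array 1 and -1.10 on array 2 (limma adjusted p = 0.0873). It was not determined whether the deletion removes the target of its probe. On the array labelled female the Y-linked genes had log2 ratios of 4.23 (Ddx3y) and 4.26 (Eif2s3y). This goes against the label of that Rbpj-cKO RNA, so each array's value is given beside every mean, and "female" and "male" below stand for the labels only. The log2 level of Ddx3y in that RNA was 11.31, between 7.08 in the female control and 12.92 and 13.46 in the male Rbpj-cKO and control RNAs. For Eif2s3y it was 11.97, between 7.70 and the male 14.06 and 14.25. The cause of these levels was not tested. Within array 1 the genotypes therefore also differ in Y-linked RNA. The part of this in the ratios of array 1 cannot be told apart from genotype. All 8 smooth muscle and all 10 urothelium markers of the ureter passed the filter on dim probes. The smooth muscle markers were lower on both arrays for 6 of 8 (medians -0.17 and -0.38) and the urothelium markers higher for 7 of 10 (0.39 and 0.09). Kidney epithelium markers were higher for 6 of the 7 measured (1.03 and 0.26) and fibroblast markers for 4 of 6 (0.32 and 0.19). Adipocyte markers were lower on both arrays for 10 of 10, with medians of -2.74 and -1.09. Liver markers had opposite signs on the arrays for 9 of 9, with medians of 0.60 and -2.66. The part of these cell types in the ratios of the 9 genes was not tested. In bulk RNA of this kind fewer cells of a type and less RNA per cell cannot be told apart. Labelled sex, dye orientation and pair changed together between the arrays, and their parts in any difference between the arrays cannot be told apart either.

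None of the 9 genes passed the adjusted threshold of limma over all genes (0 of 9, against 0.00473% of all genes called lower and 0% higher). At an unadjusted p under 0.05 stood 1 of them, Adam17, where 6.98% of all genes were higher and 7.02% lower. The 3 fringe genes, Psen2 and Mib1 were lower on both arrays, and Adam10, Adam17 and Ncstn were higher on both, beside 29.8% of all genes lower and 31.7% higher on both. Numb stood near 0. None of the 9 differed 1.5-fold on either array, as for 94.0% of all genes, while 0.795% of all genes were lower and 0.402% higher by that much on both. The mean ratio of each, with its 95% interval, lay within 1.5-fold of the control in either direction, as did that of 90.0% of all genes. The interval of Adam17 alone left out 0, as did those of 14.0% of all genes. The median of the 9 means was -0.12, with the median over all genes at 0.00.

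**Figure D1:**
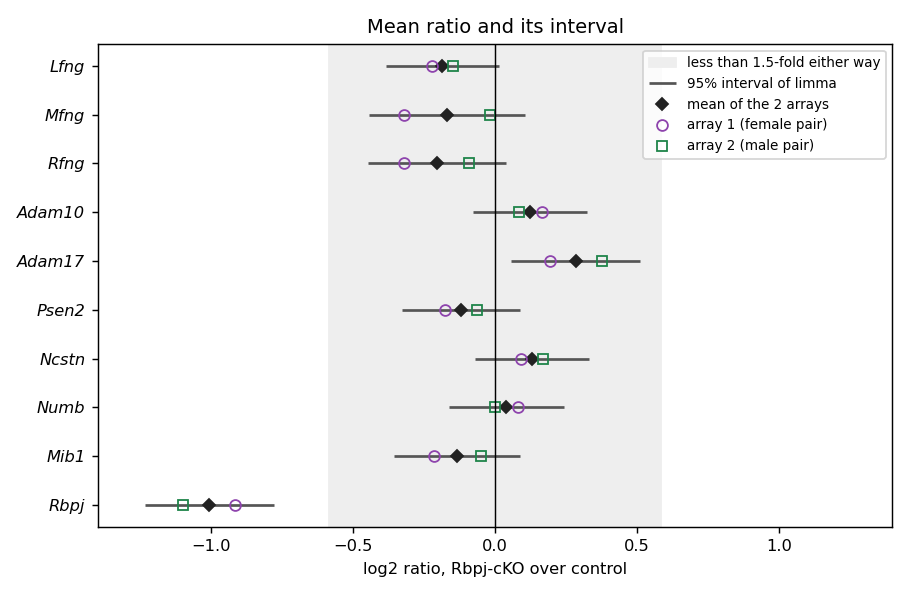
Mean log2 ratio of Rbpj-cKO over control (horizontal axis) for the 9 genes and Rbpj, with the values of the 2 arrays as open symbols, the 95% interval of limma as a bar and ratios under 1.5-fold shaded. The intervals of the 9 genes lie inside the shaded zone and only that of Adam17 leaves out 0, whereas Rbpj has a mean of -1.01.

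By the mean of the brightest probes, the fringe enzymes had the lowest ratios of the 9. On array 2 alone Mfng (-0.02) stood above Psen2 (-0.06) and Mib1 (-0.05). Lfng, the lunatic fringe, had a log2 level of 8.89 in the female and 8.93 in the male Rbpj-cKO RNA, against 9.11 and 9.08 in the controls. Both Rbpj-cKO RNAs were thus below both controls, and the RNAs of a genotype lay close together. Its log2 ratio was -0.22 for the female and -0.15 for the male pair (mean -0.19 ± 0.05, SD, n = 2), or 0.879 of the control level. In limma the 95% interval ran from -0.39 to 0.01, with an adjusted p of 0.382. All 4 spots were below 0 on each array, between -0.27 and -0.19 on array 1 and between -0.18 and -0.08 on array 2.

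Rfng, the radical fringe, had log2 levels of 13.15 (female) and 13.35 (male) in Rbpj-cKO and of 13.47 and 13.45 in the controls. The female Rbpj-cKO RNA stood apart from the other 3, which lay between 13.35 and 13.47. Its ratios were -0.32 on array 1 and -0.09 on array 2 (mean -0.21 ± 0.16, limma adjusted p = 0.420, interval -0.45 to 0.04). The dimmer Rfng probe, which lies 1737 bases away in the genome and whose sequence is given above, had -0.07 on array 1 and -0.16 on array 2. The probes therefore differed in which array showed the lower ratio. The dimmer one had a mean log2 intensity of only 7.64, against 13.35 for the brighter one. Its spots ran from -0.13 to 0.04 on array 1 and from -0.24 to -0.07 on array 2. These ranges overlap, so the order of the arrays is uncertain for the dimmer probe.

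Mfng, the manic fringe, had log2 levels of 12.49 (female) and 12.54 (male) in Rbpj-cKO and of 12.81 and 12.56 in the controls. Here the female control was the high one, and the male pair differed by 0.02 only. The ratios were -0.32 on array 1 and -0.02 on array 2 (mean -0.17 ± 0.21, limma adjusted p = 0.547, interval -0.45 to 0.10). A second Mfng probe, 98 bases away, had -0.26 and -0.05. The spots of array 1 did not overlap with those of array 2 for either probe, so the arrays differed by more than the spread between spots. Without array 1 the Mfng ratio was -0.02 and that of Rfng -0.09, against means of -0.17 and -0.21 over both arrays.

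Beside the fringe ratios, markers of endothelium, a cell type outside the Tbx18 lineage, were lower on both arrays for 7 of 10 and higher on both for 0. The median ratio of these markers was -0.34 for the female and -0.13 for the male pair, and the log2 of their summed levels was 16.60 and 16.59 in Rbpj-cKO against 17.04 and 16.73 in the controls. Leukocyte markers were lower on both arrays for 2 of 10 and higher for 2, with medians of -0.14 and 0.03, and log2 summed levels of 14.8 in both Rbpj-cKO RNAs and of 14.85 and 14.77 in the controls. Pericyte markers were lower on both for 5 of 6, with medians of -0.40 and -0.33. The part of these cells in the fringe ratios was not tested.

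**Figure D2:**
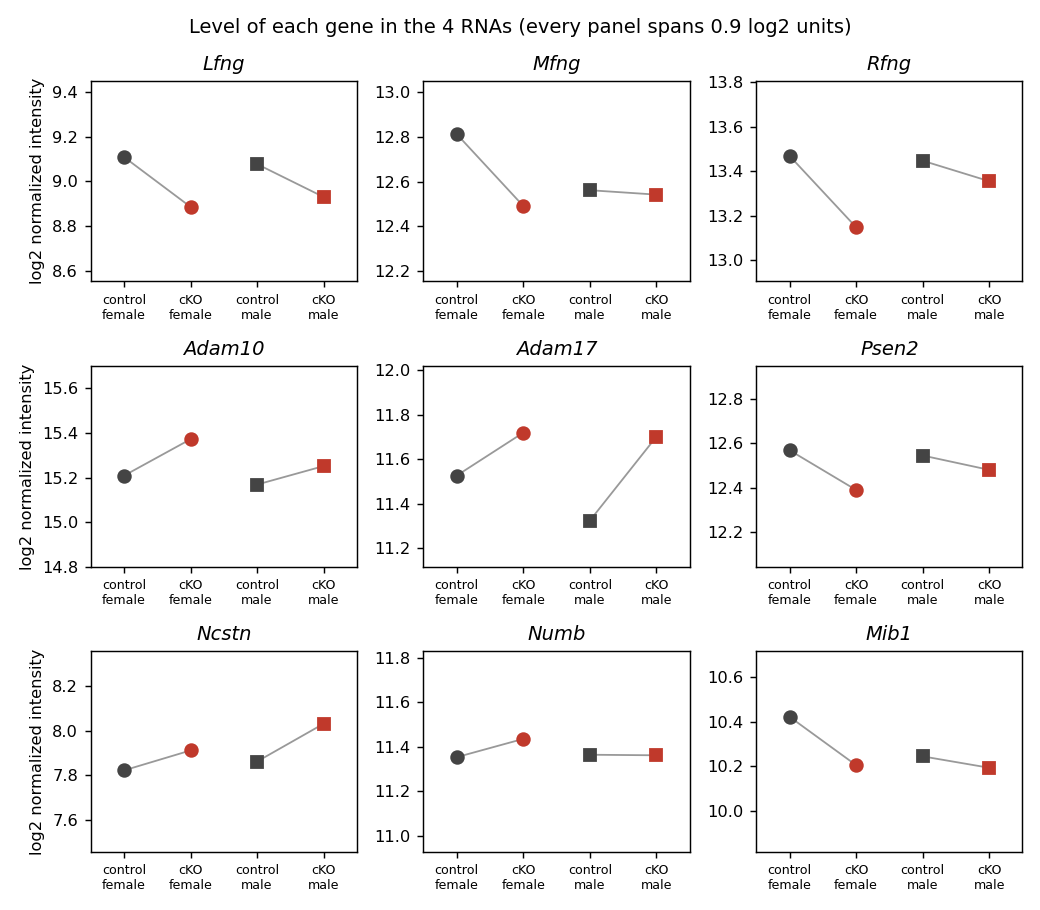
Log2 normalized intensity (vertical axis) of the brightest probe of each gene in the control and Rbpj-cKO RNA of the female (circles) and male (squares) pair, with a line joining the RNAs of an array. The fringe genes, Psen2 and Mib1 are lower in Rbpj-cKO in both pairs, Adam10, Adam17 and Ncstn are higher, and the Numb levels overlap. Levels may be compared within a panel, not between genes.

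The membrane proteases had ratios above 0. Adam17, which sheds many membrane proteins and can cut Notch, had log2 levels of 11.72 (female) and 11.70 (male) in Rbpj-cKO and of 11.53 and 11.32 in the controls. Both Rbpj-cKO RNAs were above both controls, and the male control was the lowest. Its log2 ratio was 0.19 for the female and 0.38 for the male pair (mean 0.28 ± 0.13, SD, n = 2), or 1.22 times the control level. This was the member farthest from 0, and 11.2% of all genes lay at least as far. The limma interval ran from 0.06 to 0.51, the unadjusted p was 0.0246 and the adjusted p 0.296, higher on 2 of 2 arrays. Over the 11 alternative analyses with a test its adjusted p lay between 0.262 and 0.624. A second probe gave 0.17 and 0.41, but it begins only 8 bases from the first and shares 52 of its 60 bases, so it is hardly a separate measurement.

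Adam10, the main protease of ligand-dependent Notch cleavage, had log2 levels of 15.37 (female) and 15.25 (male) in Rbpj-cKO and of 15.21 and 15.17 in the controls. Both Rbpj-cKO RNAs were above both controls, the male one by little. Its ratios were 0.16 on array 1 and 0.08 on array 2 (mean 0.12 ± 0.06, limma adjusted p = 0.553, interval -0.08 to 0.32). With median centring in place of loess the ratio became 0.42 on array 1 and -0.21 on array 2, so its direction on array 2 depends on the normalization. The probe is among the bright ones, with a mean log2 intensity of 15.25. Of the 9 genes only Adam10 and Numb changed sign on an array under any of the 11 alternatives.

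The secretase subunits had ratios on different sides of 0. Psen2, a catalytic subunit, had log2 levels of 12.39 (female) and 12.48 (male) in Rbpj-cKO and of 12.57 and 12.54 in the controls, so that both Rbpj-cKO RNAs were the lower ones. The ratios were -0.18 and -0.06 (mean -0.12 ± 0.08, limma adjusted p = 0.575, interval -0.33 to 0.09). Ncstn, nicastrin, which recognizes the substrate, was on the dim side, with log2 levels of 7.91 and 8.03 in Rbpj-cKO and of 7.82 and 7.86 in the controls. Its ratios were 0.09 and 0.17 (mean 0.13 ± 0.06, limma adjusted p = 0.530, interval -0.07 to 0.33). Although both Ncstn controls were the lower RNAs, the spots on array 2 ran from 0.03 to 0.31, the widest spread of the 12 probes (SD 0.13). Whether Psen2 and Ncstn differ from each other was not tested.

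Of the proteins that move Notch or its ligands, Numb had the ratio closest to 0. Its log2 levels were 11.44 (female) and 11.36 (male) in Rbpj-cKO and 11.35 and 11.37 in the controls, so the groups overlapped. The ratios were 0.08 on array 1 and 0.00 on array 2 (mean 0.04 ± 0.06, limma adjusted p = 0.875). Its interval, from -0.16 to 0.24, corresponds to 0.894 to 1.18 times the control level. Mib1, the ligase that sends Notch ligands into endocytosis, had log2 levels of 10.21 and 10.19 in Rbpj-cKO and of 10.42 and 10.25 in the controls. The female control was the high one. The ratios were -0.22 and -0.05 (mean -0.13 ± 0.12, limma adjusted p = 0.560, interval -0.36 to 0.09).

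**Figure D3:**
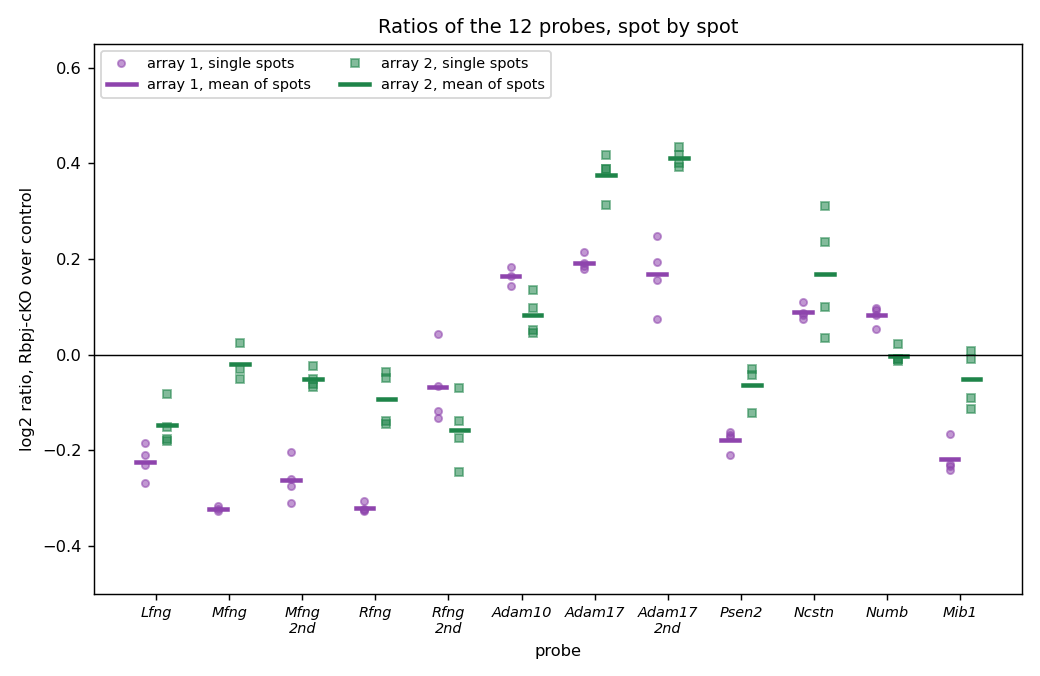
Log2 ratio of Rbpj-cKO over control (vertical axis) of every spot without an outlier flag, for the 12 probes of the 9 genes on array 1 (female pair) and array 2 (male pair), with the mean of the spots as a bar. The spots of the 2 arrays lie apart for 10 of the 12 probes, and the pair of Adam17 probes is the highest on array 2.

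The spots describe technical precision. Of the 96 member spots on both arrays, 96 were well above background in both channels, 0 were saturated and 4 carried an outlier flag and were left out. The SD between the spots of a probe lay between 0.01 and 0.13 on the log2 scale. All spots of both arrays had the same sign for 8 of the 12 probes, and the share over all probes was not counted. For 10 of the 12 the spots of array 1 and array 2 did not overlap, as for 56.5% of all probes kept. The size of the ratio was larger on array 1 for 7 of the 9 genes and larger on array 2 for Adam17 and Ncstn. How often this held over all genes was not counted, so it cannot be called a trait of these genes.

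For 8 of the 9 genes the levels of the 2 Rbpj-cKO RNAs did not overlap with those of the 2 controls, with 5 below and 3 above. Over all genes 20.8% were below and 22.3% above in this way.

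The wider set of Notch processing genes held 38 names, the 9 included, of which 37 were measured and Aph1c was not. Of these 37, both arrays gave a higher value for 12 and a lower value for 12, and 13 had opposite signs, where the shares over all genes were 31.7%, 29.8% and 38.5%. The median of the means was 0.02 against 0.00 over all genes. None passed limma's adjusted threshold (0 of 37, smallest adjusted p 0.286), and 4 had an unadjusted p under 0.05, a share of the set below the 14.0% over all genes. No gene of the set differed 1.5-fold on an array.

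Those 4 were Adam17, Aph1b, Dtx2 and Neurl3. Aph1b, a scaffold subunit of gamma-secretase, had 0.37 on array 1 and 0.21 on array 2 (mean 0.29 ± 0.12, limma adjusted p = 0.286), while its second probe gave a mean of 0.09. Dtx2, a ubiquitin ligase of the Deltex family, had -0.41 and -0.14 (mean -0.28 ± 0.19, limma adjusted p = 0.337), and its second, dim probe a mean of 0.03. The probes thus disagreed about the size for Aph1b and about the direction for Dtx2. Neurl3, of the Neuralized family, had -0.24 and -0.16 (mean -0.20 ± 0.06, limma adjusted p = 0.353).

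Among the glycosyltransferases 3 of 11 were lower on both arrays, and these were the fringe genes, a share near the 29.8% of all genes. Pofut1, which adds the O-fucose that fringe extends, had 0.03 and 0.07, and Poglut1, which adds O-glucose, 0.16 and 0.10. Gxylt2, a xylosyltransferase that extends the O-glucose, had 0.30 on array 1 and -0.31 on array 2. Of the 11 enzymes, 3 were higher on both arrays and 5 had opposite signs.

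Of the 9 measured proteases and secretase subunits, 4 were higher on both arrays (Adam10, Adam17, Ncstn and Aph1b) and 3 lower (Psen2, Aph1a and Furin), beside 31.7% and 29.8% of all genes. Psenen, the small activating subunit, had -0.08 on array 1 and 0.02 on array 2. Aph1a, the other measured scaffold subunit, had -0.21 and -0.03. Furin, the convertase that cuts Notch on its way to the surface, had -0.23 and -0.07. The alternative scaffold subunits Aph1a and Aph1b thus had mean ratios on different sides of 0, and neither passed the threshold.

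In the set of trafficking and ubiquitin genes 5 of 17 were higher and 6 lower on both arrays, shares near those of all genes. Numbl, the relative of Numb, had 0.03 and 0.09, and Itch, a ligase that acts on Notch with Numb, 0.09 and 0.08. Mib2, the relative of Mib1, had 0.11 and -0.07. Dtx3l had 0.05 on array 1 and 0.28 on array 2, and its further probes means of 0.06 and 0.00. Fbxw7, which marks the intracellular part of Notch for degradation, had 0.10 and -0.02, but its second probe -0.05 and -0.15. Nedd4l had -0.04 on each array, and its second probe -0.16 and 0.13.

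**Figure D4:**
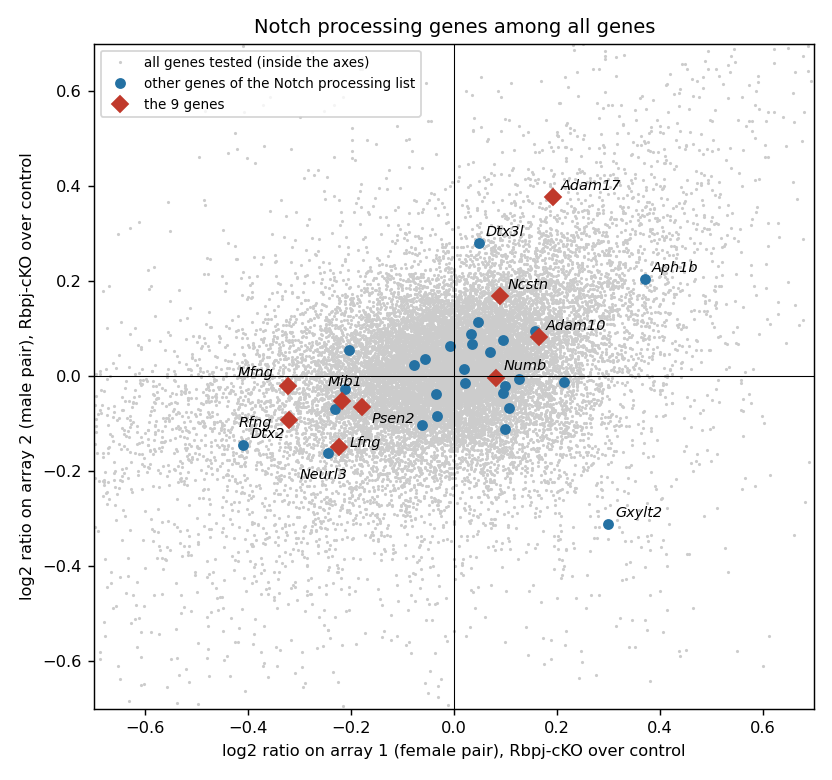
Log2 ratio of Rbpj-cKO over control on array 1 (horizontal axis) and array 2 (vertical axis) for the 9 genes (diamonds), the other 28 measured genes of the Notch processing set (circles) and all genes tested that fall within the axes (grey). The processing genes lie inside the grey cloud, with Adam17 and Aph1b at the upper right, Dtx2 and the fringe genes at the lower left and Gxylt2 with opposite signs.

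The genes with the ratios most like those of Adam17, by distance over the 2 log2 ratios, were Klrb1 (0.19 and 0.37), Slc2a9 (0.18 and 0.37) and Rarres2 (0.18 and 0.36). With 2 values per gene such likeness is common, and 223 genes lay within 0.1 of Adam17.

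**Figure D5:**
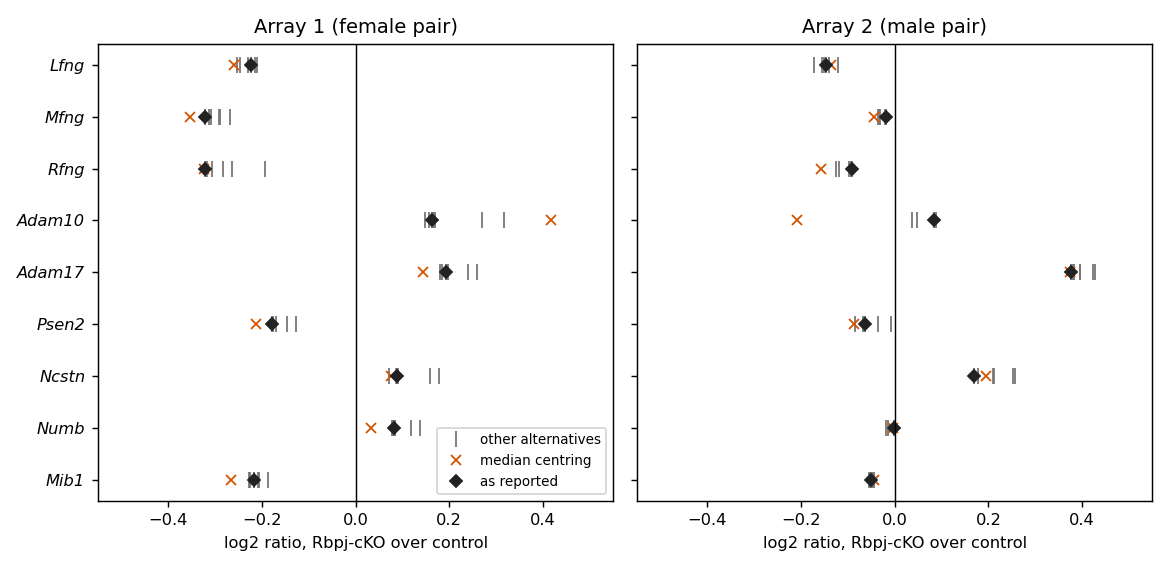
Log2 ratio of Rbpj-cKO over control (horizontal axes) of the 9 genes on each array as reported (diamonds), with median centring (crosses) and under the other alternatives (ticks). Most values move by little, the ratio of Adam10 on array 2 turns to -0.21 with median centring, and that of Numb on array 2 stays next to 0.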

How the data were processed

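The deposited spot brightnesses are intensities, read out by Agilent Feature Extraction 10.7.3.1 per the submitters' processing notes and the file headers. The deposited LogRatio is on a log10 scale, red over green, per the file headers. The authors' deposited series table holds a score of unstated making. It was read as signed fold changes (columns with a median of 1, 31.8% and 31.6% of values exactly 1, correlation with the scanner ratio 0.777 and 0.686) and served only as an alternative. The sources used here do not give its centring. Its direction was taken from that correlation.

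Mean signals were background-corrected (normexp on the local background median, offset 50) and loess-normalized within arrays with limma 3.58.1 in R 4.3.3, with control spots at weight 0. Outlier-flagged spots were dropped (3.34% and 3.12%), ratios were set as Rbpj-cKO over control for each array. The 4 spots per probe were then averaged. Probes with more than 50% of spots well above background on both arrays in at least 1 genotype were kept (28176), and the brightest stood for a gene. Names came from RefSeq accessions (GRCm38.p6), which matched 28328 probes. Levels per RNA add quantile normalization of the average intensity. Ratios were tested against 0 (lmFit and eBayes, two-sided, Benjamini-Hochberg over 21143 genes, 4.35 degrees of freedom). The fit was also run on data simulated from its own variance model, with the outcome not reported here. The 2 arrays limit the precision. All 9 genes, measured genes of the processing set (1 is not reported here by name), Rbpj and the 3 nearest genes could be named, with the sex-linked genes chosen after values were seen. The 9 genes and the lists were chosen with earlier results of these data known.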

Additional observations from a re-analysis of the deposited data

Results flagged for a closer look

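Some values had opposite signs in the pairs labelled female and male. With 1 pair per label the difference was not tested, dye orientation changed with the label, and the Y-linked genes go against the female label of 1 RNA. Pair labelled female minus pair labelled male, the log2 ratio differed by 0.084 for Numb (0.082 and -0.0024), by -0.10 for Psenen (-0.08 and 0.02) and by 0.61 for Gxylt2 (0.30 and -0.31). The second Gxylt2 probe had 0.04 and 0.24, so its probes did not share this pattern. The difference was 4.77 for Ddx3y (4.23 and -0.54) and 4.45 for Eif2s3y (4.26 and -0.19). The median ratio of the liver markers differed by 3.27 (0.60 and -2.66) and that of the leukocyte markers by -0.17 (-0.14 and 0.03). Over all genes 38.5% had opposite signs.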

How the results depend on the processing

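For the 9 genes, all 99 mean ratios under the 11 alternatives with a test kept their direction. Part of this was fixed in advance. The trend and robust settings, the 2-group fit of the 4 channels and the lack of a dim-probe filter left the ratios unchanged. So did the mean over all probes for genes with 1 probe, and keeping outlier-flagged spots for the genes that had none. None of the 9 genes passed the adjusted threshold (lowest limma adjusted p 0.262, for Adam17 with trend and robust settings). Without replicate 1 or 2 no test can be run. The ratios were then between -0.22 and -0.15 for Lfng, -0.32 and -0.02 for Mfng, -0.32 and -0.09 for Rfng, 0.08 and 0.16 for Adam10, 0.19 and 0.38 for Adam17, -0.18 and -0.06 for Psen2, 0.09 and 0.17 for Ncstn, 0.00 and 0.08 for Numb, and -0.22 and -0.05 for Mib1. The median of the processing set was -0.016 with median centring (9 of its genes higher and 15 lower on both arrays) and 0.052 with the series table (17 higher and 9 lower). With 1 array left, 16 to 21 of its genes were lower and 16 to 21 higher. The 1 gene called lower over all genes was lost (0 genes) in 5 settings: the series table, a 2-group fit of the 4 channels, scaling between arrays, median centring and the scanner log ratio. With eBayes set to trend and robust, 46 genes were called higher and 49 lower. Genes 1.5-fold higher and lower were 245 and 265 with the scanner log ratio, and 154 higher with the series table. With 1 array left they were 202 to 258 higher and 292 to 783 lower. The cause of these shifts was not tested, except that a single array is a weaker condition than both. The reported fit is itself paired, as each ratio is taken within an array, and the 2-group fit of the 4 channels is the unpaired one.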
